A study of Arabidopsis thaliana with 9 samples.

Results

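The trans-acting siRNA triggers, the related MIR391 and the TAS4 locus were represented by 13 probes for 6 genes, out of 15013 probes for 5154 transcripts on the array. They were chosen by name: every probe that the files name ath-MIR390a, ath-MIR390b, ath-MIR391, ath-MIR173 or ath-MIR828, which are miRNA precursors, and every probe for AT3G25795 (TAS4). MIR390a and MIR173 had 1 probe each, MIR390b had 2, and MIR391, MIR828 and TAS4 had 3 each. No measured value entered this rule, although earlier results of these data were known when it was made. The RNA came from whole Arabidopsis thaliana seedlings, 2 weeks old, raised on solid MS medium in long days, with 3 biological replicates of each of 3 genotypes. Wild type (WT) was the Columbia accession (Col-0), se-2 is a mutant allele of SERRATE, and cbp20 cbp80 is a double mutant of CBP20 and CBP80, which together form the nuclear cap-binding complex. The labels name no treatment. The arrays held no probe named for SERRATE, CBP20 or CBP80, so they gave no check of the mutated genes.

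Trans-acting siRNAs are made from noncoding TAS transcripts. A miRNA guides an Argonaute protein to cut the TAS transcript, the polymerase RDR6 with SGS3 copies a cut fragment into double-stranded RNA, and DCL4 with DRB4 dices this into phased siRNAs that silence other mRNAs. In Arabidopsis, miR173 triggers the TAS1 and TAS2 loci, whose siRNAs target pentatricopeptide repeat genes. miR390, carried by AGO7, triggers TAS3, whose siRNAs target auxin response factor genes that set leaf polarity and the timing of adult leaf traits. miR828 triggers TAS4, whose siRNAs target MYB genes that control anthocyanin. The trigger miRNAs themselves are cut from longer primary transcripts by DCL1, helped by SERRATE and HYL1, and the cap-binding complex also takes part. A precursor probe reads the uncut or partly cut transcript. Mature miRNAs and siRNAs were not analysed here.

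Each level is given as a scaled log2 signal, which is the log2 processed signal minus the array's 75th percentile among the 1835 probes that all 9 arrays detected, so most levels of these dim probes are negative. A probe counted as well above background, or detected, where the scanner software marked it so. Replicates of a mutant lay closer together than the WT replicates: the median SD over tested probes was 0.09 in se-2, 0.11 in cbp20 cbp80 and 0.54 in WT on this log2 scale. The 6 mutant arrays shared 1 slide while the 3 WT arrays came from 3 further slides, so a difference from WT cannot be told apart from a difference between slides. For that reason each comparison with WT was repeated with a random effect for the slide, called the slide block. The block does not separate genotype from slide. The mutants were compared within their slide. Of 14 markers of leaf, root, flower, seed and housekeeping expression, only the seed genes EM1 (AT3G51810) and EM6 (AT2G40170) had probes, so the array could not check the labelled tissue. EM1 was well above background with all 3 of its probes on all 3 se-2 arrays, with none on any WT array, and with 0 to 3 arrays per probe in cbp20 cbp80. EM6 was well above background on at most 1 array of any genotype. The part of these markers in the results below was not tested, and in RNA from whole seedlings fewer cells of a type and less RNA per cell cannot be told apart.

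Of the 13 probes, 11 were detected by every array of some genotype and were tested. Of these 11, 3 were well above background on all 9 arrays. The other 8 passed this filter only through the mutants, which favours a higher level there. The 2 probes not tested, CUST_5925 for MIR391 and CUST_6453 for TAS4, were well above background on no array. By limma with Benjamini-Hochberg adjustment over all tested probes, 8 of the 11 were higher in se-2 than in WT and 0 were lower, where 20.1% of all probes tested were called higher and 20.9% lower. In cbp20 cbp80, 6 of the 11 were higher than in WT and 0 were lower, where 24.1% of all probes tested were called higher and 16.3% lower. With the slide block, 3 of the 11 were called in each mutant, all higher. Of all probes, 5% were then called higher and 1.61% lower in se-2, and 4.67% higher and 0.902% lower in cbp20 cbp80. The counts turned with normexp, an alternative background correction with an offset of 50: 3 of the 11 were then higher and 8 lower in se-2, and 1 higher and 3 lower in cbp20 cbp80, where 73.9% and 50.5% of all probes were called lower. With normexp the median change from WT over all probes tested was −0.77 in se-2 and −0.31 in cbp20 cbp80. With no filter, 7 of the 13 were higher and 1 lower in se-2, where 4.29% of 15013 probes were called higher and 56.5% lower. The lower one was CUST_6453, which was well above background on no array. Since most members entered through the mutants, these counts are a description only. The same holds for the p-values against WT of the 8 probes that did.

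**Figure D1:**
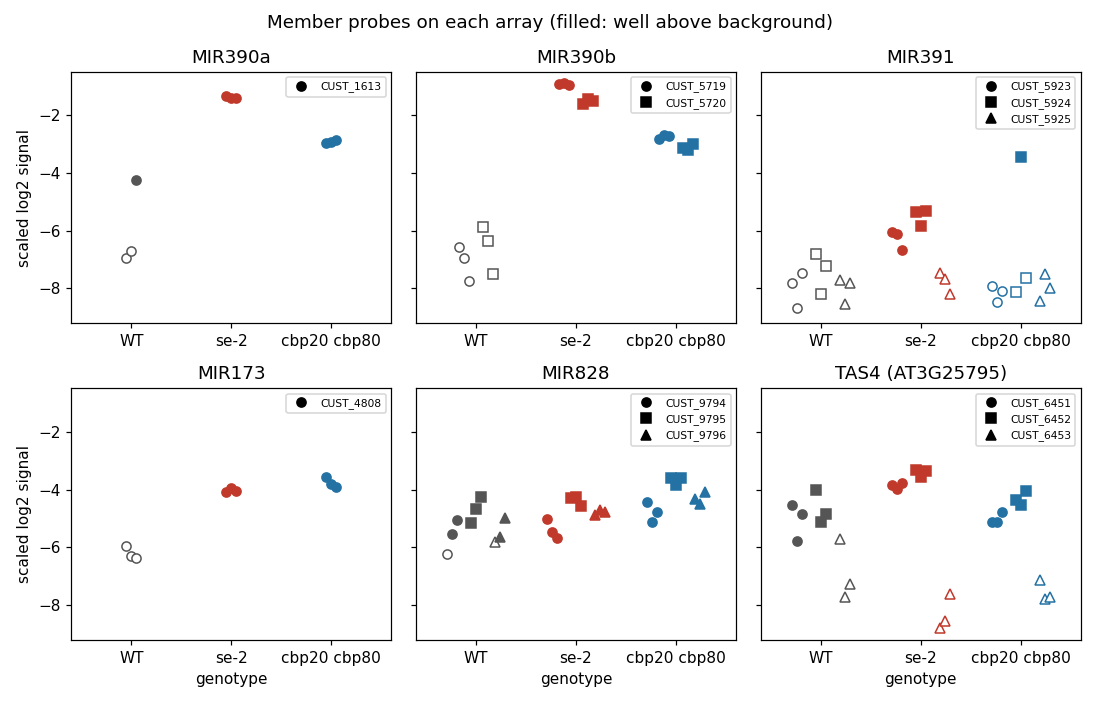
Scaled log2 signal (vertical axis) of each of the 13 probes on each array, in 1 panel per gene, with genotype on the horizontal axis and 1 point per array; marker shapes separate the probes of a gene, filled points are well above background and open points are not. MIR390a and MIR390b rise from WT points that are all open but 1 (MIR390a, replicate 3) to filled mutant points, highest in se-2. MIR828 is highest in cbp20 cbp80. Probes CUST_6451 and CUST_6452 of TAS4 are highest in se-2, whereas the mean of its open probe CUST_6453 is lowest there.

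MIR390a and MIR390b, the precursors of the TAS3 trigger, had the largest differences from WT among the 6 genes. Both were highest in se-2, lower in cbp20 cbp80 and near or below background in WT. Their probes passed the filter only through the mutants, so their p-values against WT, also under the slide block, are a description. Probe CUST_5719 of MIR390b read −6.58, −6.96 and −7.75 in WT replicates 1 to 3. It read −0.92, −0.88 and −0.93 in se-2, and −2.83, −2.67 and −2.72 in cbp20 cbp80. The genotypes did not overlap, and no WT array was well above background.

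The change of CUST_5719 from WT to se-2 was 6.19 ± 0.27 on the log2 scale (SE, n = 3 arrays per genotype, limma adjusted p = 1.84e-06). Because every WT array was dim, this is a level at least 34.0-fold higher in se-2 under this signal and scaling. For that bound each dim array was set to the lowest detected signal on it or to its own signal, whichever was larger. The change to cbp20 cbp80 was 4.36 ± 0.27 (limma adjusted p = 1.26e-05), at least 9.56-fold higher than WT. Both calls held under the slide block (adjusted p = 0.000332 for se-2 and 0.00285 for cbp20 cbp80). With normexp the log2 changes from WT were smaller, at 1.45 in se-2 and 0.40 in cbp20 cbp80. Quantile normalization after normexp gave 2.03 and 0.82. Within the mutants' slide, se-2 exceeded cbp20 cbp80 by 1.83 (95% interval 1.69 to 1.97, limma adjusted p = 1.32e-05), a fold of 3.55.

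The second MIR390b probe, CUST_5720, followed the same order of genotypes. Its levels were −5.86, −6.37 and −7.50 in WT, −1.59, −1.43 and −1.50 in se-2, and −3.15, −3.21 and −3.01 in cbp20 cbp80. The probe was well above background on all 6 mutant arrays and on no WT array. Against WT it rose at least 22.4-fold in se-2 (limma adjusted p = 2.03e-05, under the slide block 0.00245). In cbp20 cbp80 it was at least 7.31-fold higher (limma adjusted p = 0.000193, under the slide block 0.0189). With normexp the log2 changes from WT were smaller, at 0.95 in se-2 and 0.25 in cbp20 cbp80. The difference between the mutants was 1.61 (95% interval 1.43 to 1.80), or 3.06-fold, at an adjusted p of 6.24e-05 by limma.

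MIR390a, read by the single probe CUST_1613, held −6.95, −6.70 and −4.24 in the WT replicates. In se-2 it held −1.31, −1.39 and −1.39, and in cbp20 cbp80 −2.95, −2.91 and −2.87. WT replicate 3 stood apart as the 1 WT array well above background, and it still lay below every mutant array. The se-2 level was at least 16.6-fold higher than WT (log2 change 4.59 ± 0.62, limma adjusted p = 0.000637, under the slide block 0.0214). The cbp20 cbp80 level was at least 5.68-fold higher (3.05 ± 0.62, limma adjusted p = 0.00538), a call lost under the slide block (adjusted p = 0.120). Without WT replicate 3 the log2 changes were 5.46 and 3.91. With normexp and every replicate they were smaller, at 0.99 in se-2 and 0.28 in cbp20 cbp80. Between the mutants se-2 was higher by 1.54 (95% interval 1.43 to 1.66), a fold of 2.92 (limma adjusted p = 1.41e-05). A fit of all 9 arrays, which takes in the wider WT spread, gave an adjusted p of 0.223 for the same difference.

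MIR391, whose miRNA is related in sequence to miR390, was much nearer background. Probe CUST_5923 was well above background on all 3 se-2 arrays, at −6.06, −6.12 and −6.66. It was well above background on no array of WT, where it read −7.82, −8.70 and −7.48, or of cbp20 cbp80, where it read −7.92, −8.47 and −8.09. The probe was tested only because the se-2 arrays detected it, so its separation and p-values are a description. The se-2 arrays did not overlap with the others. The log2 change was 1.72 ± 0.33 from WT (limma adjusted p = 0.00410, under the slide block 0.554). From cbp20 cbp80 to se-2 it was 1.88 ± 0.22 (limma adjusted p = 0.00144). Neither gives a least fold, because the se-2 mean lay below the mean, over the dim arrays of the other genotype, of the lowest detected level. With normexp both changes were negative, at −0.91 and −0.44. Less the median of all probes tested, they were −0.14 and −0.0022.

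The values of probe CUST_5924 of MIR391 depended on 1 array. This probe too passed the filter only through se-2, so its p-values are a description. It read −5.37, −5.83 and −5.33 in se-2 and −6.83, −8.21 and −7.23 in WT, with all se-2 arrays well above background and no WT array so. In cbp20 cbp80 it read −8.12, −3.45 and −7.65, and replicate 2 alone was well above background, with a processed signal of 29.8 against 1.23 and 1.62. In the fit of all arrays the change from WT to se-2 was not called (1.91 ± 1.09, limma adjusted p = 0.200), whereas in a fit of these 6 arrays alone it was (adjusted p = 0.0140). The difference between the mutants was 0.90 ± 1.27 (limma adjusted p = 0.590), and 2.38 without cbp20 cbp80 replicate 2 (limma adjusted p = 0.00271). The log2 change from WT to cbp20 cbp80 was 1.02 with that array and −0.46 without it, not called either way.

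MIR173, the precursor of the TAS1 and TAS2 trigger, was higher than in WT in both mutants under each scaling run except normexp without quantile normalization. Its probe CUST_4808 read −5.96, −6.32 and −6.37 in WT, where no array was well above background. The probe passed the filter only through the mutants, so its p-values against WT are a description. It read −4.09, −3.96 and −4.05 in se-2, and −3.58, −3.82 and −3.92 in cbp20 cbp80. Against WT it rose at least 3.85-fold in se-2 (log2 change 2.19 ± 0.17, limma adjusted p = 3.07e-05), and the call was lost under the slide block (adjusted p = 0.0664). It was at least 4.60-fold higher in cbp20 cbp80 (2.44 ± 0.17, limma adjusted p = 2.1e-05, under the slide block 0.0486). With normexp both changes turned negative, at −0.47 for se-2 and −0.042 for cbp20 cbp80. Less the median of all probes tested, they were 0.30 and 0.27. With normexp followed by quantile normalization the changes were 0.42 and 0.40.

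Between the mutants, MIR173 was not called different. The difference was −0.26 (95% interval −0.51 to −0.0042, limma adjusted p = 0.0847), although the 3 arrays of se-2 lay below the 3 of cbp20 cbp80. Its sign was positive under 4 other ways of scaling, with values of 0.023 to 0.092. It was called without cbp20 cbp80 replicate 3 (−0.33, limma adjusted p = 0.0474) and with normexp (−0.42, limma adjusted p = 1.9e-06). A p that misses the threshold does not show that the mutants were equal.

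MIR828, the precursor of the TAS4 trigger, was the one trigger called higher in cbp20 cbp80 than in se-2, a sign it kept under every scaling run. Probe CUST_9795 was well above background on all 9 arrays. Its levels were −5.16, −4.69 and −4.25 in WT, −4.29, −4.28 and −4.58 in se-2, and −3.61, −3.83 and −3.62 in cbp20 cbp80. The cbp20 cbp80 arrays lay above all others, and the WT and se-2 arrays overlapped. The change from WT to cbp20 cbp80 was 1.01 ± 0.24, a fold of 2.02 (limma adjusted p = 0.0104), and it was not called under the slide block (adjusted p = 0.528). The change from WT to se-2 was 0.32 (95% interval −0.23 to 0.87, limma adjusted p = 0.321). Within the mutants' slide, se-2 minus cbp20 cbp80 was −0.69 (95% interval −0.97 to −0.42, limma adjusted p = 0.00456). It was −0.35 with a limma adjusted p of 0.101 when each array was scaled by its 75th percentile over all probes. In the authors' table it was −0.31 and not called. A fit of all 9 arrays gave a limma adjusted p of 0.152. With normexp the 3 MIR828 probes lay below WT in both mutants. The log2 changes were −0.77 to −0.85 for se-2 and −0.16 to −0.30 for the double mutant. Less the median of all probes tested, they were −0.087 to 0.00058 for se-2 and 0.010 to 0.15 for the double mutant.

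The other MIR828 probes had the same order. They passed the filter only through the mutants, so their p-values against WT are a description. Probe CUST_9796 read −5.83, −5.66 and −4.97 in WT, with replicate 1 dim, −4.88, −4.73 and −4.80 in se-2, and −4.33, −4.49 and −4.10 in cbp20 cbp80. It was at least 2.16-fold higher in cbp20 cbp80 than in WT (limma adjusted p = 0.00509, under the slide block 0.442). In se-2 it was at least 1.54-fold higher at a limma adjusted p of 0.0481, a call lost when any WT or se-2 replicate but WT 3 was left out (adjusted p = 0.0897 to 0.137) and under the slide block (0.725). Its difference between the mutants was −0.50 ± 0.11 (limma adjusted p = 0.0152). That difference shrank to −0.34 with median scaling, −0.15 with the percentile over all probes, −0.13 with quantile normalization and −0.11 in the authors' table, none of them called (limma adjusted p = 0.0703 to 0.421). It was not called in the fit of all 9 arrays (adjusted p = 0.313) or without se-2 replicate 1 (adjusted p = 0.0544). Probe CUST_9794, with WT replicate 1 also dim, was called in no comparison: its log2 changes from WT were 0.22 ± 0.33 in se-2 and 0.82 ± 0.33 in cbp20 cbp80 (limma adjusted p = 0.629 and 0.0831). Its difference between the mutants was −0.60 ± 0.24 (limma adjusted p = 0.0871), with the same sign as the other MIR828 probes.

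TAS4, the noncoding transcript that miR828 cuts, showed the opposite order of the mutants in both of its tested probes. They were higher in se-2, except with normexp without quantile normalization. In cbp20 cbp80 neither was called different from WT under the percentile of detected probes. Probe CUST_6452 was well above background on all 9 arrays. It read −4.00, −5.11 and −4.84 in WT, −3.33, −3.56 and −3.36 in se-2, and −4.38, −4.52 and −4.06 in cbp20 cbp80. The se-2 arrays lay above all others, and the cbp20 cbp80 arrays lay within the WT range. The change from WT to se-2 was 1.23 ± 0.28, a fold of 2.35 (limma adjusted p = 0.00944), not called under the slide block (adjusted p = 0.525). The change from WT to cbp20 cbp80 was 0.33 (95% interval −0.32 to 0.98, limma adjusted p = 0.388), an interval that reaches from a fall to a rise. It was called without WT replicate 1 (0.65, limma adjusted p = 0.0260) and with the percentile over all probes (0.93, limma adjusted p = 0.0288). Between the mutants the difference was 0.90 (95% interval 0.57 to 1.24), a fold of 1.87 (limma adjusted p = 0.00362).

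Probe CUST_6451 of TAS4 gave a like result. It read −4.55, −5.79 and −4.84 in WT, −3.85, −3.97 and −3.76 in se-2, and −5.14, −5.13 and −4.79 in cbp20 cbp80, and again only the se-2 arrays stood apart. The se-2 level was 2.29-fold that of WT (log2 change 1.20 ± 0.30, limma adjusted p = 0.0142, under the slide block 0.495), and the call was lost without se-2 replicate 3 (adjusted p = 0.0518). The change in cbp20 cbp80 was 0.04 (95% interval −0.66 to 0.74, limma adjusted p = 0.928), and it was called lower with normexp (−0.40, limma adjusted p = 0.0220). Within the mutants' slide, se-2 was 2.23-fold above cbp20 cbp80 (1.16 ± 0.12, limma adjusted p = 0.000928). In a fit of all 9 arrays the difference between the mutants had an adjusted p of 0.0665 for this probe and 0.120 for CUST_6452. With normexp the difference between the mutants was −0.12 for this probe and −0.0075 for CUST_6452, and the change from WT to se-2 was −0.52 and −0.34.

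**Figure D2:**
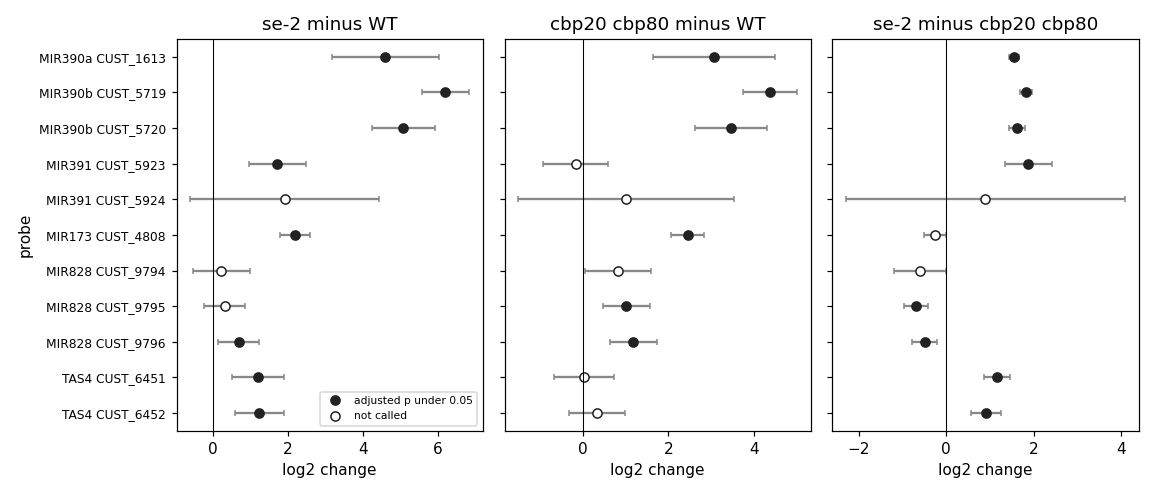
Log2 change (horizontal axis) of the 11 tested probes (vertical axis) in se-2 minus WT, cbp20 cbp80 minus WT and se-2 minus cbp20 cbp80, with 95% intervals as bars; filled points had a limma adjusted p under 0.05. MIR390a and MIR390b lie to the right of 0 in every panel, and in the panel of the mutants, under the percentile scaling used there, MIR828 lies to the left of 0 and TAS4 to the right.

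Within the mutants' slide, 6 of the 11 probes were higher in se-2, where 13.8% of all 3040 probes tested were called higher. The 6 were MIR390a, both MIR390b probes, CUST_5923 of MIR391 and both TAS4 probes. CUST_5923 and CUST_5924 of MIR391 passed the filter only through se-2, so CUST_5923 adds nothing to the count. Another 2 of the 11, both of MIR828, were higher in cbp20 cbp80, where 34.8% of all probes were called so. The members higher in cbp20 cbp80 numbered 0 with the percentile over all probes, 0 in the authors' value table and 7 with normexp. Those higher in se-2 numbered 6, 6 and 3 under the same settings. The split over all probes depended on the scaling: 421 probes were higher in se-2 and 1058 lower, against 704 and 632 with median scaling, 1075 and 289 where the percentile was taken over all probes, 725 and 533 with quantile normalization, and 737 and 440 in the authors' value table. The median change over all probes tested moved with it, at −0.15 by the percentile of detected probes, 0.0022 by median scaling, 0.20 by the percentile over all probes, 0.063 by quantile normalization and −0.44 with normexp.

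The percentile and median scalings shift each array by a constant, so a difference less that median is the same under each of them by construction. These differences were 1.98 and 1.77 for MIR390b, 1.70 for MIR390a, 2.03 and 1.05 for MIR391, and 1.31 and 1.06 for TAS4. MIR173 lay at −0.10, close to the median. MIR828 lay at −0.54, −0.45 and −0.34. Under quantile normalization the MIR828 probes lay at −0.41, −0.25 and −0.19, so MIR828 kept its sign and was nearer the median. With normexp the TAS4 probes lay at 0.32 and 0.43 and the MIR390a and MIR390b probes at 1.13 to 1.49. The MIR391 probes then lay at −0.0022 and −0.077, the MIR828 probes at −0.11 to −0.17, and MIR173 at 0.011.

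**Figure D3:**
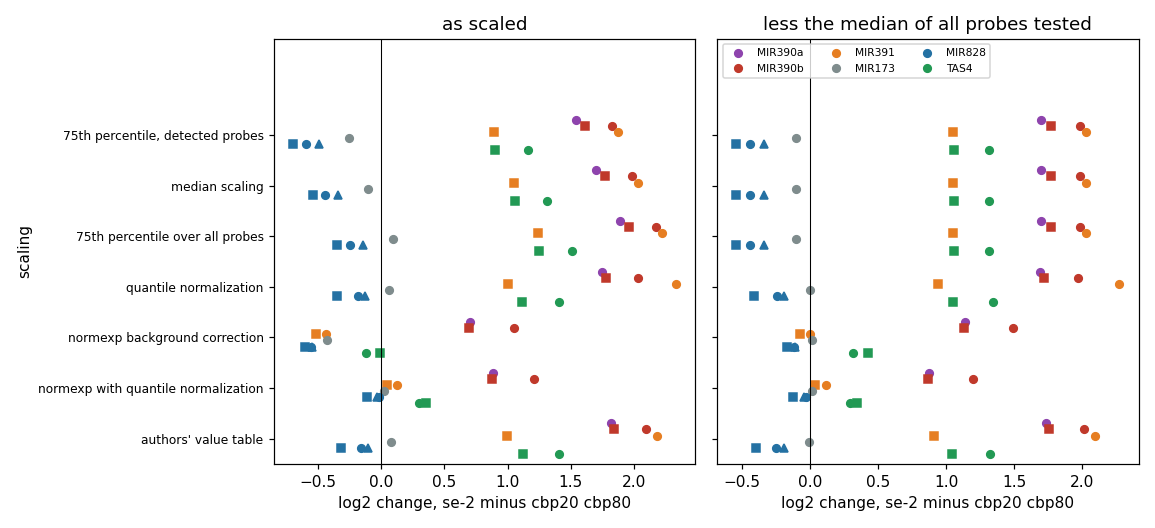
Log2 difference between se-2 and cbp20 cbp80 (horizontal axis) of the 11 tested probes under each of 7 ways of scaling (vertical axis), as scaled on the left and less the median of all probes tested on the right; colours separate genes and shapes the probes of a gene. MIR390a and MIR390b stay right of 0 and MIR828 stays left of 0 in all of them, whereas MIR173 changes side on the left and sits near 0 on the right.

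The member precursors were set among the other miRNA precursors on the array. With each precursor read by its brightest probe, 126 precursors were tested, 5 of them members. The WT levels of MIR390a, MIR390b, MIR173 and MIR391 were not well above background on 2 or 3 of the 3 WT arrays, so the ranks of these genes against WT order measured changes from such levels and are approximate. For se-2 against WT, where the 121 others had a median log2 change of 2.82 with 93 higher and 4 lower, MIR390b ranked 2 from the top, MIR390a 15, MIR173 77, MIR391 85 and MIR828 108. MIR391 is ranked here by CUST_5924, the probe with 1 outlying cbp20 cbp80 array. For cbp20 cbp80 against WT the others had a median of 2.24 with 84 higher and 4 lower, and the ranks were 7, 33, 55, 88 and 89 for MIR390b, MIR390a, MIR173, MIR391 and MIR828. These comparisons share the WT arrays. Of all tested transcripts, 18.2% were called higher and 19.5% lower in se-2, with a median of 0.013. In cbp20 cbp80, 24.4% were called higher and 14.0% lower, with a median of 0.26. Precursors could pass the filter through the mutants alone, so their counts are a description. TAS4, which is no miRNA precursor, changed by 1.23 in se-2, below the median of the precursors.

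Between the mutants, 75 of the 121 other precursors were higher in se-2 and 16 lower. Their median was 0.46, with an interquartile range of −0.01 to 1.10. Of all tested transcripts, 11.7% were called higher and 36.3% lower, with a median of −0.21. A precursor could pass the filter through either mutant alone. MIR390b, MIR390a and MIR391 ranked 14, 20 and 41 of 126. MIR391 was ranked by CUST_5924, at 0.90, which was 2.38 without the outlying cbp20 cbp80 replicate 2. Its probe CUST_5923 differed by 1.88, so the rank of MIR391 is uncertain. MIR173 ranked 110 and MIR828 122, so both lay below the lower quartile. The difference of MIR390b and MIR390a from the other precursors was not tested.

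**Figure D4:**
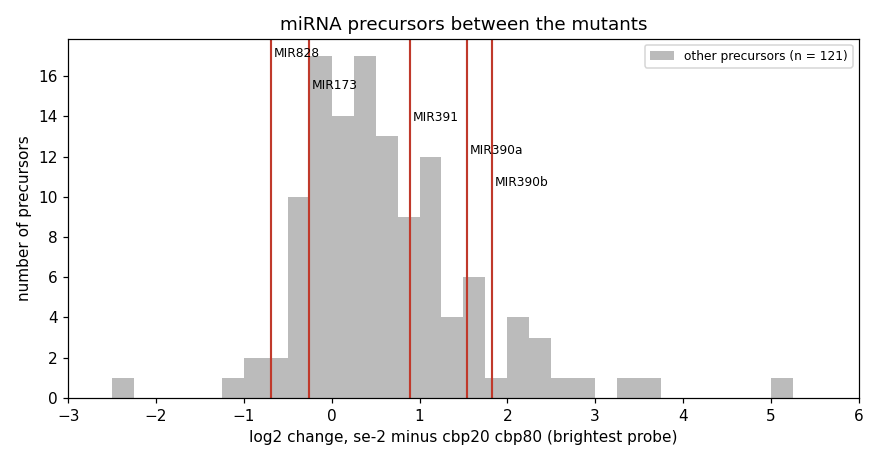
Number of the 121 other miRNA precursors (vertical axis) by log2 change in se-2 minus cbp20 cbp80 (horizontal axis, brightest probe of each), with red lines at the 5 member precursors. MIR390b at 1.83 and MIR390a at 1.54 lie in the upper tail, and MIR173 at −0.26 and MIR828 at −0.69 in the lower part.

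Few other genes of the pathway had probes. Of 36 genes listed beside the members (further TAS loci, silencing and processing factors, and targets), 3 were on the array with 9 probes, all tested: DCL1 (AT1G01040), DCL4 (AT5G20320) and DRB4 (AT3G62800). TAS1, TAS2 and TAS3, AGO7, RDR6, SGS3 and the auxin response factor and MYB targets had none, so the levels of these could not be read beside their triggers. Against WT, 3 of the 9 probes were higher in se-2 and 0 lower, 1 probe for each gene, where 20.1% of all probes were called higher. The limma adjusted p-values were 0.0402 for DCL1, 0.0256 for DCL4 and 0.0193 for DRB4, and under the slide block they were 0.554, 0.567 and 0.532, with no call left. The DCL1 call was also lost with median scaling (adjusted p = 0.114). Their changes were 0.53, 0.50 and 0.49, and other probes of the same genes changed by −0.08 to 0.88 without a call, so the probes of a gene disagreed.

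Of all probes tested, 24.1% were called higher and 16.3% lower in cbp20 cbp80 than in WT. There 1 DRB4 probe was higher than in WT (0.39, limma adjusted p = 0.0472) and 1 DCL1 probe was lower (−0.81, limma adjusted p = 0.00191). Both calls were lost under the slide block (adjusted p = 0.650 and 0.242), and the DRB4 change was 0.14 with median scaling (adjusted p = 0.400). Between the mutants 4 of the 9 probes were higher in se-2 and 1 lower. Of all probes tested, 13.8% were called higher and 34.8% lower. All 3 DCL1 probes were higher in se-2, by 0.71 to 0.76, and by 0.69 to 1.11 over all scalings run. For DCL4, 1 probe was higher (0.13) and 1 lower (−0.18, but 0.17 with the percentile over all probes and 0.019 in the authors' table), and the DRB4 probes differed by 0.07 to 0.10 with no call. DCL1, the Dicer that cuts the trigger precursors, was thus the one of these 3 genes whose probes were all called the same way between the mutants under the percentile of detected probes.

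The transcripts with the most similar pattern were sought for the 3 member probes well above background on all 9 arrays, among 450 precursor and named-locus transcripts. Pearson's r was taken over the 9 arrays, which share 3 genotypes and 4 slides, and is a description. For TAS4 probe CUST_6452 the closest were AGO2 (AT1G31280, r = 0.971), NF-YA5 (AT1G54160, r = 0.962) and MIR167b (r = 0.932). For CUST_6451 they were MIR824 (r = 0.958), MIR167b (r = 0.952) and MIR779 (r = 0.931). For MIR828 probe CUST_9795 they were transcripts of AT1G26218 (r = 0.919), AT1G26208 (r = 0.899) and AT1G01448 (r = 0.869). MIR167b was thus shared by both TAS4 probes, and MIR828 had no neighbour in common with them.

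By the gene order of the TAIR10.1 assembly, no annotated gene overlapped a member. MIR390a lies on chromosome 2 between TBL34 and the lncRNA gene AT2G08955, and MIR390b on chromosome 5 between CHX25 and TAF15b. MIR391 lies on chromosome 5 between AT5G60400 and SIZ1, which encodes a SUMO ligase. MIR173 lies on chromosome 3 beside SUP, a floral zinc finger gene, and AT3G23122. MIR828 lies on chromosome 4 between FEY and ACBP2, and TAS4 on chromosome 3 between AT3G25790 and PP2AA2. The members are therefore spread over 4 chromosomes, with no pair adjacent to each other.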

How the data were processed

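Each sample's total RNA was amplified into Cy3-labelled cRNA and put on a 1-colour array, per the labels. The deposited scanner files give an intensity per spot from Agilent Feature Extraction, per the file headers (version 10.7.3.1, or 10.5.1.1 for WT replicates 1 and 2). The headers name the extraction protocol GE1_107_Sep09 for WT replicate 3 and GE1_105_Dec08 for the other arrays. The processed signal is background-subtracted and detrended within the array, per the file headers. The value table deposited by the authors holds log2 values that rank the probes as the processed signals do. Its scale was read from the values, its centring is not stated (column medians 0.322 to 0.323), and it was used as an alternative. No between-array step is recorded for the scanner files.

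Left out were controls and outlier-marked spots, at most 39 on an array, and no spot was saturated. Between 2192 and 3711 probes per array were well above background, and 3 arrays per genotype limit the precision. The log2 processed signal was reduced by the 75th percentile described with the results. Comparisons with WT used all 9 arrays and the 3103 probes detected by every array of some genotype. Their SEs, intervals and p-values take 1 spread per probe for all 3 genotypes, although the WT arrays spread more. The mutants were compared on their 6 arrays and 3040 probes. Tests were limma 3.58.1 (lmFit, eBayes) in R 4.3.3, two-sided, with Benjamini-Hochberg adjustment over all probes tested and a threshold of 0.05. The slide was fitted by duplicateCorrelation (consensus 0.948). Where 1 or more arrays of the dimmer group were not well above background, the fold is written as "at least". Such a bound holds for the processed signal and this percentile scaling only. The scripts were tested on simulated data. Precursors in the ranks are represented by the probe with the highest mean signal.

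The labels call the replicates biological and do not say whether they came from separate cultures. Members and gene lists were chosen with earlier results of these data known. Every member probe is named, the pathway genes on the array are named, and the 3 most similar transcripts per probe are given. Alternatives were other scalings, normexp (offset 50), which used the median in place of the mean spot signal, the authors' table, other filters, replicate block, slide block, trended variance, array weights, fewer or more arrays in the fit, and leaving out each replicate. Names and gene order come from the TAIR10.1 gene table, without its coordinates. Plots came from Python 3.11.15 with matplotlib 3.10.9.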

Additional observations from a re-analysis of the deposited data

How the results depend on the processing

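MIR390a and both MIR390b probes kept their direction in all 3 comparisons under every alternative that tested them. The stricter filter tested none of them against WT. CUST_5719 of MIR390b kept every call where it was tested. The cbp20 cbp80 calls of MIR390a and CUST_5720 were lost with normexp (adjusted p = 0.0844 and 0.0620). MIR390a also lost its cbp20 cbp80 call under the slide block (limma adjusted p = 0.120). Its call between the mutants was lost in the fit of all 9 arrays (limma adjusted p = 0.223). The median change over all probes tested with normexp was −0.77 in se-2 and −0.31 in cbp20 cbp80 against WT, and −0.44 between the mutants. Normexp with an offset of 50 turned several values. Against WT in se-2 these were −0.47 (MIR173), −0.91 and −0.85 (MIR391), −0.85, −0.77 and −0.78 (MIR828), and −0.52 and −0.34 (TAS4). In cbp20 cbp80 they were −0.042 (MIR173), −0.34 (MIR391), −0.30, −0.16 and −0.23 (MIR828), and −0.40 and −0.33 (TAS4). Between the mutants they were −0.44 and −0.51 (MIR391) and −0.12 and −0.0075 (TAS4). The small change of TAS4 probe CUST_6451 in cbp20 cbp80 was also negative with median scaling (−0.21), quantile normalization (−0.029), normexp with quantile normalization (−0.028), the authors' table (−0.052), array weights (−0.073), without WT replicate 2 (−0.33, up to 0.29 without WT replicate 1) and without cbp20 cbp80 replicate 3 (−0.077), and that of CUST_6452 with normexp and quantile normalization (−0.020). CUST_5923 of MIR391 in cbp20 cbp80 turned positive with the percentile over all probes (0.44), quantile normalization (0.20), the authors' table (0.21) and without WT replicate 3 (0.099). CUST_5924 ranged from −0.46 without cbp20 cbp80 replicate 2 to 1.87 without replicate 1, and CUST_9794 of MIR828 in se-2 from −0.095 without WT replicate 1 to 0.50 without WT replicate 3. MIR173 between the mutants turned positive with the percentile over all probes (0.092), quantile normalization (0.060), normexp with quantile normalization (0.023) and the authors' table (0.080). The cause of these turns was not tested. The members called in se-2 against WT were 8 higher and 0 lower, against 3 higher and 8 lower with normexp and 7 higher and 1 lower with no filter. The total was 2 with the stricter filter, which tested 3 of them, 4 with array weights and 3 with the slide block. In cbp20 cbp80 they were 6 higher and 0 lower, against 1 higher and 3 lower with normexp, and the total was 4 with normexp and quantile normalization, 1 with the stricter filter and 3 with the slide block. Between the mutants they were 6 higher and 2 lower in se-2, against 3 higher and 7 lower with normexp, and 6 higher and 0 lower with the percentile over all probes or in the authors' table. The total was 3 in the fit of all 9 arrays. All probes called in se-2 numbered 1273, and 1939 when scaled over all probes, 2568 under normexp, 9129 with no filter, 797 with array weights and 205 with the slide block. In cbp20 cbp80 they numbered 1255, and 1915 with normexp, 750 with the stricter filter, 824 with array weights and 173 with the slide block. Between the mutants they numbered 1479, and 2690 with normexp, 7593 with no filter and 195 with all 9 arrays. Leaving out 1 replicate gave 6 to 9 members and 923 to 1619 probes in se-2, 6 to 7 and 929 to 1621 in cbp20 cbp80, and 7 to 9 and 1188 to 1421 between the mutants. The split of higher and lower calls moved from 624 and 649 to 1762 and 177 when scaled over all probes, 274 and 2294 with normexp and 801 and 542 in the authors' table for se-2. It moved from 748 and 507 to 574 and 722 with median scaling, 1486 and 229 when scaled over all probes and 347 and 1568 with normexp for cbp20 cbp80, and from 421 and 1058 to 246 and 2444 with normexp and 650 and 599 with normexp and quantile normalization between the mutants. Same-numbered replicates did not deviate together (correlations −0.048 to 0.030), so the numbers were not taken to pair samples. With the replicate block, 8, 6 and 9 members and 1154, 1140 and 1229 probes were called in the 3 comparisons. Signals near background limit MIR391, and the WT levels of MIR390a, MIR390b and MIR173 are bounds.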
